A study of Mus musculus with 23 samples.

Results

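The 10 genes described here are the transcription factor gene *Nfe2l2*, which encodes NRF2, its antagonist *Bach1*, the small MAF genes *Maff* and *Mafg*, and 6 genes known as NRF2 targets, *Hmox1*, *Nqo1*, *Gclm*, *Gclc*, *Srxn1* and *Txnrd1*. They were matched by gene symbol and NCBI gene identifier, and all 10 of 10 were found among the 21878 genes of the tables. Bulk RNA-Seq was made of neutrophils sorted as CD45+CD11b+Ly6G+ cells in a pair of experiments. In the tissue comparison, WT mice gave 3 libraries each from lung, peripheral blood (PB) and bone marrow (BM). In the Piezo1 experiment, WT and *Piezo1*-cKO mice gave 2 libraries each from lung and from PB. The labels give no age or sex. *Piezo1*-cKO mice carried floxed *Piezo1*, the gene of a mechanically gated cation channel, and Vav1-iCre, which is active in hematopoietic cells at large and not only in neutrophils, while the WT mice of that experiment served as their controls. Lungs were perfused, minced and digested with collagenase IV and DNase I at body temperature, whereas PB went through red cell lysis and BM came from tibias and femurs, and cells of PB and lung passed a neutrophil negative selection kit before the sort, so that tissue and tissue processing cannot be told apart.

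NRF2 is held in the cytoplasm by KEAP1, which hands it to a CUL3 ubiquitin ligase. When electrophiles or oxidants modify KEAP1, NRF2 escapes degradation, pairs with a small MAF protein in the nucleus and binds the antioxidant response element. BACH1 pairs with the same small MAF proteins and represses part of the same genes, with *Hmox1* as its best known target, until heme releases it. Because the control of NRF2 is largely exerted on the protein, the transcript levels below do not measure NRF2 activity. Neutrophils produce superoxide and hypochlorous acid themselves and are exposed to both.

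Between 9621120 and 19330774 reads per library were assigned to genes, and where a library had a count of 0, as many as 3 reads (per 1000000 reads, 0.155 to 0.312) could have been missed. These limits cover counting error only. The study gives the replicates of the tissue comparison as separate mice. For the Piezo1 experiment neither the labels nor the study says so, and there the p-values measure the spread between these libraries, which may be technical. The neutrophil markers *Ly6g*, *S100a8*, *S100a9*, *Csf3r*, *Itgam*, *Cxcr2*, *Mmp9* and *Retnlg* were detected in every group. In the tissue comparison the early granulocyte markers *Elane*, *Mpo*, *Prtn3*, *Mki67* and *Top2a* summed to 33.6 to 35.4 FPKM in BM. Their sum was 1.89 to 2.78 FPKM in PB and 2.65 to 3.59 in lung. The part of cell maturity in the differences from BM was not tested. Of 9 macrophage markers, 7 had over 3 reads in some lung library of the tissue comparison, 3 in PB and 8 in BM. *Adgre1* and *Chil3* carried most of their summed level, which was 62.6 to 66.2 FPKM in lung, 60.1 to 76.6 in PB and 2356 to 2488 in BM. *Chil3* alone had a mean of 35.6 FPKM in lung, 38.2 in PB and 2378 in BM. *C1qa* had 9 to 14 reads in lung, 0 to 1 in PB and 70 to 118 in BM, and *Marco* 0 to 2, 0 and 1. In lung of the Piezo1 experiment the sum was 89.9 to 92.2 FPKM in WT and 137 to 139 in *Piezo1*-cKO. In PB it was 191 to 210 in WT and 310 to 312 in *Piezo1*-cKO, so that the genotypes did not overlap. Over 3 reads in some library were reached by 2 of the 9 markers in WT lung, 5 in *Piezo1*-cKO lung and 3 in PB of each genotype. *C1qa* was at 0 in all of these groups, while *Siglec1* had 1 to 3 reads in WT lung and 11 to 14 in *Piezo1*-cKO lung. In PB *Siglec1* had 8 to 9 (WT) and 0 to 4 (*Piezo1*-cKO). *Chil3* led the sum here too, with means of 59.1 (WT) and 101 FPKM (*Piezo1*-cKO) in lung and 155 and 263 in PB. The cells that these transcripts came from cannot be told in bulk samples, and their part in the results was not tested. PB replicate 3 of the tissue comparison stood further from PB replicates 1 and 2 (mean chi-square per gene of 24.6 and 40.9) than those stood from each other (4.72).

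*Nfe2l2*, *Maff*, *Srxn1* and *Txnrd1* were higher in lung neutrophils than in those of PB and BM, whereas, on the deposited scale, *Hmox1* and *Bach1* were lower than in PB and *Mafg*, *Gclm* and *Nqo1* lower than in BM, so that the genes of the NRF2 pathway moved in both directions. Against PB, 6 of the 10 genes were called, 4 higher and 2 lower in lung, where a called gene had, by limma-trend, an absolute log2 fold change above 1 at an adjusted p below 0.05. Over all 7577 genes tested, 27.2% were called, 7.75% higher and 19.5% lower. Against BM, 7 of the 10 genes were called, 4 higher and 3 lower, beside 45.9% of all genes, 9.86% higher and 36.0% lower. The same 3 lung libraries stand in both comparisons. The levels are FPKM, that is fragments per kilobase of gene and per 1000000 mapped fragments, and differences are taken on log2(FPKM + 1). On this scale the median of all genes lay at -0.54 for lung against PB and at -0.70 for lung against BM, and a rescaling that sets the libraries to a common median ratio turned the split of all calls to 12.3% higher and 5.91% lower against PB and to 19.3% higher and 14.1% lower against BM. Under that rescaling the 4 genes called higher in lung were called too, but against PB none was called lower, and against BM *Gclc* joined the higher and *Nqo1* left the lower genes. On the recovered reads edgeR and DESeq2 called the same 4 genes and *Gclc* higher in both comparisons. They called 0 lower against PB (by edgeR -0.60 for *Hmox1* and -0.81 for *Bach1*) and 3 lower against BM. Over all genes edgeR called 14.1% higher and 11.4% lower against PB and 21.3% higher and 23.1% lower against BM. Fewer cells with a transcript and less transcript per cell cannot be told apart in bulk samples.

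**Figure D1:**
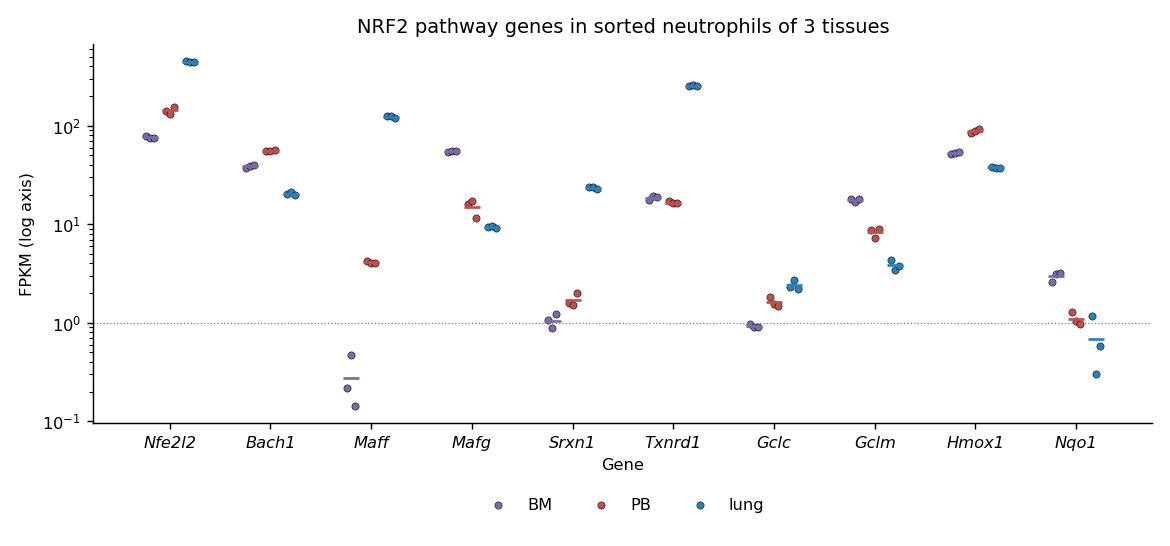
FPKM (log axis) of the 10 genes in neutrophils of BM, PB and lung. Each point is 1 library, 3 per tissue, the short lines are means, and the dotted line marks 1 FPKM. *Nfe2l2*, *Maff*, *Srxn1* and *Txnrd1* were highest in lung, where *Nfe2l2* reached 440 to 452 FPKM, whereas *Mafg*, *Gclm* and *Nqo1* were highest in BM.

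The 250 bases before an annotated transcript start of 7 of these genes are shown so that the genes that were high in lung can be read beside those that were not (RefSeq, GRCm38.p6, each on the strand of its gene). Capitals mark the antioxidant response element core TGACNNNGC, or its reading on the other strand, GCNNNGTCA.
*Nfe2l2*, chr2:75704664-75704913, minus strand: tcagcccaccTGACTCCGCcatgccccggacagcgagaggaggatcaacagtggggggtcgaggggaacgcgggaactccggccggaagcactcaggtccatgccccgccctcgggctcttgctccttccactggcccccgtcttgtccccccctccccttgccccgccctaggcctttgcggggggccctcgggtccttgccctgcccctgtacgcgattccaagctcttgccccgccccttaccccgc
*Maff*, chr15:79346371-79346620, plus strand: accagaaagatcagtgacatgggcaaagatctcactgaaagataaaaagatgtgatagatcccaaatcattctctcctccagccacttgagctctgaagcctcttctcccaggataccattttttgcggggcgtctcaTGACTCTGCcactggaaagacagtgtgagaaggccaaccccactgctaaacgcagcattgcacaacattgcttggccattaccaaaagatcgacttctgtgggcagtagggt
*Mafg*, chr11:120633548-120633797, minus strand: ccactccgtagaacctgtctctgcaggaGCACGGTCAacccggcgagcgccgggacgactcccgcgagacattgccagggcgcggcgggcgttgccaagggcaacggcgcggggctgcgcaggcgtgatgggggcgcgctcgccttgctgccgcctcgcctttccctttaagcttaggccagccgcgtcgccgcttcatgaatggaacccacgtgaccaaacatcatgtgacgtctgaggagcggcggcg
*Txnrd1*, chr10:82858956-82859205, plus strand: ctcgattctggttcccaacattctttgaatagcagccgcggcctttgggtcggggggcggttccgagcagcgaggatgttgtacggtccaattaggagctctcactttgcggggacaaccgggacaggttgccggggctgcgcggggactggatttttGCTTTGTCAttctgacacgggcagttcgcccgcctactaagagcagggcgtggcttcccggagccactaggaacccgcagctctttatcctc
*Srxn1*, chr2:152105274-152105523, plus strand: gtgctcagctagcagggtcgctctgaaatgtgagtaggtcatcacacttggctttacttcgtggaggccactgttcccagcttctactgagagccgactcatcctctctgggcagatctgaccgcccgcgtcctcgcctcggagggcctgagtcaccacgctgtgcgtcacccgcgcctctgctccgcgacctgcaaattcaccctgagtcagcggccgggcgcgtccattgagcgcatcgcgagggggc
*Gclm*, chr3:122245307-122245556, plus strand: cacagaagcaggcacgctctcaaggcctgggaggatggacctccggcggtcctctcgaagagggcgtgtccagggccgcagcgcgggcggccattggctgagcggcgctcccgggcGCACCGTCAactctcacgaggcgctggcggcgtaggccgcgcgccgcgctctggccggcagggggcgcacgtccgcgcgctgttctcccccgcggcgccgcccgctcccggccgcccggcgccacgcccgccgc
*Nqo1*, chr8:107403206-107403455, minus strand: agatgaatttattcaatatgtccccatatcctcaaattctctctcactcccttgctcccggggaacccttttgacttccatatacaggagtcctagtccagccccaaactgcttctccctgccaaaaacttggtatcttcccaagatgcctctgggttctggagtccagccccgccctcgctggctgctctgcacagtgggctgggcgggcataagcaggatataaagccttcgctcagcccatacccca
For *Mafg*, *Gclm* and the *Txnrd1* start shown, the start lies inside the full extent of the gene as given with its values. *Hmox1* and *Gclc* had no promoter entry. The core was searched on both strands of 300 bases, 250 before to 50 after each start. It occurred in 12.4% of all 32851 windows and for 14.0% of all 27025 genes with a window, and for 6 of the 8 genes described here that had one. It began 240 bases before the start of *Nfe2l2*, 112 before the first of 3 starts of *Maff*, 222 before that of *Mafg*, 92 before the middle of 3 starts of *Txnrd1*, 134 before that of *Gclm* and 28 bases after that of *Srxn1*, which is why the *Srxn1* sequence above has no capitals. The letters were not in the windows of *Nqo1* and *Bach1*. Stretches that differ from the core at a fixed letter were not searched for in any gene. Genes with a match were *Nfe2l2*, *Maff*, *Srxn1* and *Txnrd1*, which were high in lung, and *Gclm* and *Mafg*, which were not.

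*Nfe2l2* (chr2:75675513-75704663, minus strand) was highest in lung. Its level was 79.3, 75.0 and 75.8 FPKM in the BM libraries, 142, 130 and 157 FPKM in PB and 452, 443 and 440 FPKM in lung. The 3 tissues did not overlap, and lung stood well apart from the other two. In lung the transcript rested on 18114 to 19345 reads per library and ranked 153 to 157 by FPKM among all genes. Its rank was 424 to 487 in PB libraries and 721 to 769 in those of BM. The log2 difference was 1.63 ± 0.07 (SE) for lung minus PB (adjusted p = 2.78e-07, limma-trend) and 2.52 ± 0.03 for lung minus BM (adjusted p = 2.11e-13, limma-trend). For PB minus BM it was 0.89, below the fold threshold, and 1.01 after rescaling, which is above it. The 5 genes whose profile over the 9 libraries lay nearest to that of *Nfe2l2*, among 5108 genes with a mean of at least 5 FPKM, were *Kdm6b* (Euclidean distance of centred log2 values 0.26), *Fam76a* (0.30), *Snx20* (0.34), *Rnf19b* (0.37) and *Ndel1* (0.40).

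*Bach1* (chr16:87698954-87733346), the repressor, followed another order. It measured 37.3, 39.1 and 39.6 FPKM in BM, 55.4, 54.8 and 56.6 FPKM in PB and 20.5, 21.4 and 19.6 FPKM in lung. On the deposited scale the gene was highest in PB and lowest in lung, without overlap. It was called lower in lung than in PB, with a log2 difference of -1.40 ± 0.05 (adjusted p = 1.31e-07, limma-trend), and after rescaling the difference was -0.77, short of the fold threshold. For lung minus BM the value was -0.88, and it was -0.06 after rescaling and -0.11 by edgeR. Within a library the ratio of *Nfe2l2* to *Bach1* FPKM does not depend on scaling, and it was 1.91 to 2.13 in BM, 2.38 to 2.77 in PB and 20.6 to 22.4 in lung. In the Piezo1 experiment it was 22.7 to 25.0 in WT PB and 181 to 191 in WT lung, and 25.1 to 27.2 and 230 to 235 in the *Piezo1*-cKO libraries, so that lung was above PB in both experiments while the values differed between them.

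The leading small MAF gene differed between the tissues of the tissue comparison. *Maff* (chr15:79346621-79359078) had 0.22, 0.47 and 0.14 FPKM in BM, 4.22, 4.02 and 4.08 FPKM in PB and 125, 124 and 119 FPKM in lung. The BM values rested on 7 to 24 reads and the lung values on 5229 to 5680 reads. Its mean FPKM was 29.8 times higher in lung than in PB and 446 times higher in lung than in BM (684 times without BM replicate 2), with log2 differences of 4.60 ± 0.05 (adjusted p = 5.87e-10, limma-trend) and 6.61 ± 0.08 (adjusted p = 7.60e-13, limma-trend). *Mafg* (chr11:120625117-120634955, minus strand) had 54.0, 55.8 and 55.9 FPKM in BM, 16.0, 17.4 and 11.6 FPKM in PB and 9.29, 9.68 and 9.22 FPKM in lung. It fell from BM to PB (log2 difference of PB minus BM -1.83 ± 0.13, adjusted p = 4.83e-06, limma-trend) and was lower in lung than in BM (-2.43 ± 0.04, adjusted p = 3.17e-12, limma-trend). Lung minus PB was -0.61, close to the median of all genes of -0.54, and after rescaling -0.01.

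*Mafk*, the remaining small MAF gene, completes the picture. Its mean was 14.6 ± 0.73 FPKM (SD, n = 3) in BM, 30.1 ± 2.75 in PB and 33.9 ± 0.48 in lung, and it was called higher in lung than in BM (log2 difference 1.16). The summed FPKM of the 3 small MAF genes was 68.5 to 71.6 in BM, 42.7 to 53.2 in PB and 163 to 168 in lung. *Mafg* made up 77.9% to 79.8% of the sum in BM, *Mafk* 59.8% to 63.2% in PB and *Maff* 73.2% to 74.4% in lung, so that each tissue had a different leading member there. In the WT libraries of the Piezo1 experiment *Mafk* led in both tissues, with 76.4% to 77.6% of the sum in lung and 77.4% to 79.5% in PB.

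**Figure D2:**
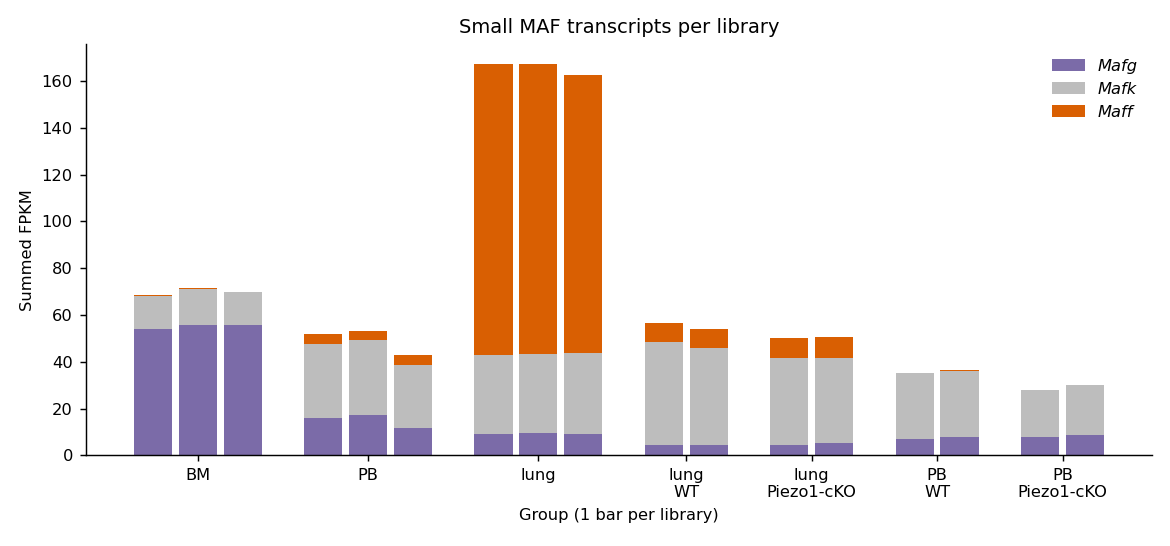
Summed FPKM of *Mafg*, *Mafk* and *Maff*, 1 stacked bar per library, for the tissue comparison (3 libraries per tissue) and for the Piezo1 experiment (2 per group). *Maff* made up 73.2% to 74.4% of the sum in lung of the tissue comparison and 14.4% to 15.3% in WT lung of the Piezo1 experiment, where *Mafk* led.

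*Srxn1* and *Txnrd1*, which act on the peroxiredoxin and thioredoxin arm, were the target genes called higher in lung by limma-trend. *Srxn1* (chr2:152105524-152111376) encodes sulfiredoxin, which repairs overoxidized peroxiredoxins. It measured 1.06, 0.88 and 1.22 FPKM in BM, 1.59, 1.53 and 2.01 FPKM in PB and 23.9, 24.0 and 22.6 FPKM in lung. All lung libraries lay more than 10 FPKM above every other library, with a log2 difference of 3.18 ± 0.08 against PB (adjusted p = 2.34e-08, limma-trend) and 3.58 ± 0.07 against BM (adjusted p = 1.96e-11, limma-trend). *Txnrd1* (chr10:82833951-82897724) encodes cytosolic thioredoxin reductase, which keeps thioredoxin reduced. It measured 17.7, 19.5 and 18.7 FPKM in BM, 17.1, 16.4 and 16.3 FPKM in PB and 251, 259 and 252 FPKM in lung, a mean 15.3 times that of PB and 13.6 times that of BM. BM and PB nearly met for *Txnrd1* (log2 difference of PB minus BM -0.16), and its log2 difference of lung minus PB was 3.86 ± 0.05 (adjusted p = 7.57e-10, limma-trend).

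The genes of glutathione synthesis were not called higher in lung by limma-trend. *Gclc* and *Gclm* encode the catalytic and the modifier subunit of glutamate-cysteine ligase, the rate-limiting enzyme of glutathione synthesis. *Gclm* (chr3:122245487-122267215) had 17.9, 16.9 and 17.9 FPKM in BM, 8.80, 7.26 and 8.98 FPKM in PB and 4.31, 3.43 and 3.80 FPKM in lung. Each step down was free of overlap, and lung against BM was called (log2 difference -1.94 ± 0.07, adjusted p = 1.74e-09, limma-trend; -1.20 after rescaling). Lung minus PB was -0.95, under the fold threshold. It was -1.01 and -1.03, past it, without lung replicate 1 or PB replicate 2, and -0.40 after rescaling and -0.49 by edgeR. *Gclc* (chr9:77754535-77794489) was low throughout and had the opposite order, with 0.97, 0.90 and 0.90 FPKM in BM, 1.84, 1.56 and 1.49 FPKM in PB and 2.31, 2.71 and 2.18 FPKM in lung. With a pseudocount of 1 its log2 difference of lung minus BM was 0.82, not called, while edgeR on the recovered reads gave 2.18 (adjusted p = 1.31e-16), which was called, as was lung minus PB at 1.18. After rescaling lung minus BM was 1.32 and called, and lung minus PB 0.79.

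*Hmox1* and *Nqo1*, the most used readouts of NRF2, were not among the genes called higher in lung. *Hmox1* (chr8:75093618-75100593) encodes heme oxygenase-1, which opens the heme ring. It measured 51.8, 52.6 and 54.6 FPKM in BM, 84.8, 87.9 and 91.7 FPKM in PB and 38.4, 37.5 and 37.5 FPKM in lung. On the deposited scale PB was highest and lung lowest without overlap, the same order as *Bach1*. Lung was called lower than PB (log2 difference -1.20 ± 0.05, adjusted p = 2.39e-07, limma-trend). After rescaling the difference to PB was -0.57, no longer called, and that to BM turned from -0.48 to 0.36. *Nqo1* (chr8:107388225-107403205, minus strand) encodes a quinone reductase and rested on few reads, with 78 to 94 per library in BM, 28 to 35 in PB and 8 to 31 in lung. It measured 2.62, 3.13 and 3.23 FPKM in BM, 1.27, 1.05 and 0.97 FPKM in PB and 1.17, 0.30 and 0.59 FPKM in lung. Lung and PB overlapped, and lung was called lower than BM (log2 difference -1.27 ± 0.16, adjusted p = 2.78e-05, limma-trend; -0.79 after rescaling, not called).

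Between BM and PB, 2 of the 10 genes were called, beside 22.0% of all genes (7.85% higher and 14.1% lower). *Maff* was higher in PB (log2 difference of PB minus BM 2.01 ± 0.10, adjusted p = 8.24e-07, limma-trend) and *Mafg* lower. The median of all genes was -0.12 here. The libraries of BM and PB did not overlap for any of the 10 genes, 6 higher and 4 lower in PB. Over all genes the libraries did not overlap for 31.4% that were higher and 45.4% that were lower in PB. Higher in PB were *Nfe2l2*, *Bach1*, *Hmox1*, *Gclc*, *Srxn1* and *Maff*, and lower were *Nqo1*, *Gclm*, *Txnrd1* and *Mafg*. On the recovered reads edgeR added *Nfe2l2* (1.01) and *Nqo1* (-1.34) to the calls. Leaving out any 1 PB library took *Maff* below the filter on low values, since 2 libraries then reached 1 FPKM. *Gclm* (log2 difference of PB minus BM -0.99) passed the fold threshold without PB replicate 1 (-1.03), PB replicate 3 (-1.04) or BM replicate 2 (-1.02).

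The WT libraries of the Piezo1 experiment repeated the comparison of lung with PB in other libraries, with other levels. *Nfe2l2* measured 637 and 626 FPKM in WT lung and 217 and 211 FPKM in WT PB. *Srxn1* measured 50.5 and 51.4 FPKM in lung against 3.40 and 3.34 FPKM in PB, and *Txnrd1* 133 and 130 FPKM against 9.21 and 8.19 FPKM. *Maff* had 8.18 and 8.25 FPKM in lung and 0.26 and 0.43 FPKM in PB, the latter on 9 and 17 reads. Lung lay above PB in each of these 4 genes, and all were called. Without either lung library *Maff* no longer passed the filter on low values. The level of *Maff* in lung was 123 ± 3.06 FPKM (SD, n = 3) in the tissue comparison and 8.21 ± 0.05 (n = 2) here. The difference in level between the experiments was not tested.

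In the same WT libraries *Hmox1* (34.3 and 37.1 FPKM in lung, 118 and 113 in PB), *Bach1* (3.34 and 3.45 in lung, 8.68 and 9.31 in PB) and *Nqo1* (0.26 and 0.26 in lung on 6 reads each, 1.66 and 1.85 in PB) were called lower in lung. In all, 7 of the 9 genes tested were called, 4 higher and 3 lower, beside 34.0% of all genes, 7.50% higher and 26.5% lower. The median of all genes was -0.62. After rescaling, 13.2% of all genes were called higher and 8.85% lower, and of the 10 genes the 4 rises alone were called, with differences of -0.93 for *Hmox1*, -0.56 for *Bach1* and -0.82 for *Nqo1*. *Gclm* had 9.75 and 8.86 FPKM in lung and 17.4 and 15.0 FPKM in PB (log2 difference -0.74), and *Mafg* 4.51 and 4.52 against 6.99 and 7.87 FPKM (-0.61). *Gclc* did not pass the filter on low values, with 0.69 and 0.51 FPKM in lung and 0.91 and 1.12 FPKM in PB.

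**Figure D3:**
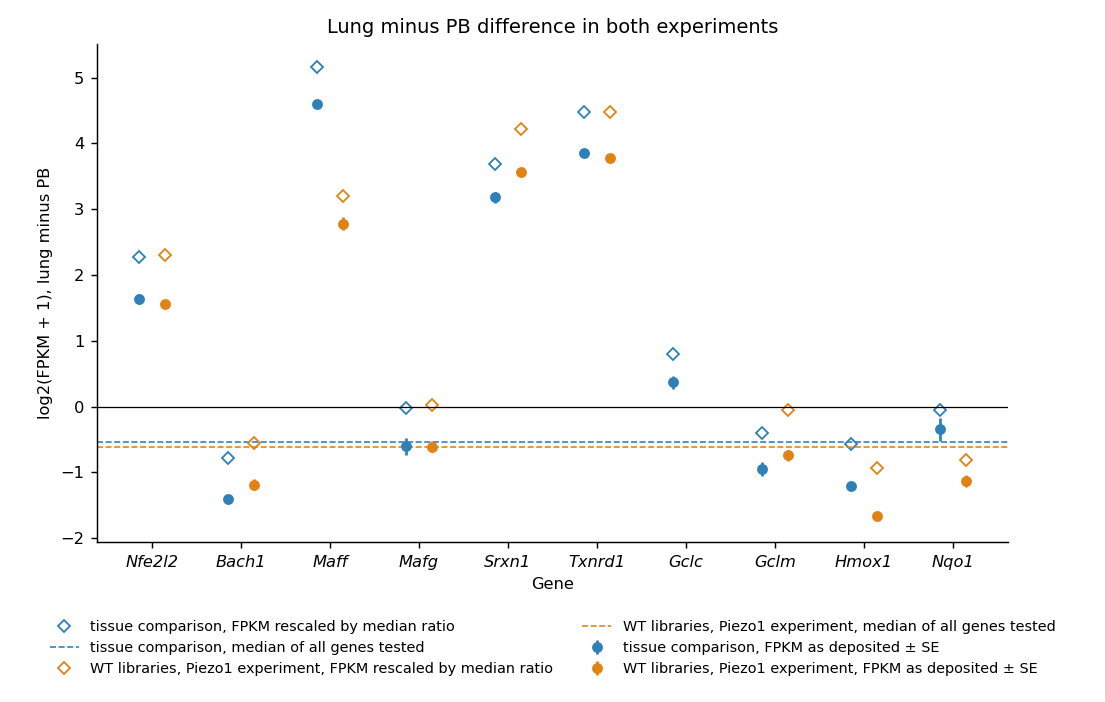
Log2(FPKM + 1) of lung minus PB for each gene, as deposited (filled circles, ± SE of limma-trend) and after rescaling by the median ratio (open diamonds), in the tissue comparison (3 against 3 libraries) and in the WT libraries of the Piezo1 experiment (2 against 2). The dashed lines are the medians of all genes, -0.54 and -0.62. *Nfe2l2*, *Maff*, *Srxn1* and *Txnrd1* lay above 1 in both experiments and on both scales, and *Gclc* was not tested in the Piezo1 experiment.

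Around these 10 genes, 65 further genes of the pathway were read from 7 lists. Of 54 tested between lung and PB, 7 were called higher and 13 lower in lung, with a median log2 difference of -0.52 against -0.54 for all genes, and edgeR, which rescales the libraries, called 9 higher and 5 lower. Over all genes 7.75% were called higher and 19.5% lower by limma-trend, and 14.1% and 11.4% by edgeR, and the counts of each list below stand beside these shares. Among the NRF2 regulators and partners 1 of 8 was called higher and 4 lower (edgeR, 1 and 2). *Keap1*, which encodes the inhibitor of NRF2, had 6.73 ± 0.35 FPKM (SD, n = 3) in BM, 4.23 ± 0.94 in PB and 0.48 ± 0.12 in lung, on 33 to 51 reads in lung, and the log2 difference of lung minus PB was -1.81 (adjusted p = 5.45e-06, limma-trend). In the WT libraries of the Piezo1 experiment *Keap1* stood at 0.32 and 0.35 FPKM in lung and at 3.43 and 4.09 FPKM in PB, a log2 difference of -1.83. *Nfe2*, a hematopoietic relative of *Nfe2l2* that also pairs with small MAF proteins, was lower in lung (40.3 ± 1.15 FPKM) than in PB (134 ± 19.5) and BM (180 ± 0.52), with log2 differences of -1.70 and -2.13.

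In the glutathione list 3 of 15 tested genes were called higher and 2 lower in lung than in PB (edgeR, 3 and 1). *Slc7a11* and *Slc3a2*, the subunits of the cystine importer that feeds glutathione synthesis, led the rises. *Slc7a11* had 6.78 ± 0.39 FPKM in BM, 14.1 ± 0.29 in PB and 139 ± 2.72 in lung, and its log2 difference of lung minus PB was 3.22. *Slc3a2* had 7.45 ± 0.28, 8.86 ± 0.46 and 76.7 ± 0.50 FPKM in the same order, a difference of 2.98. *Mgst2*, a membrane-bound glutathione transferase, had the largest fall against BM, from 48.1 ± 1.73 to 1.72 ± 0.14 FPKM. Between PB and lung its log2 difference was -0.35.

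Of 5 tested genes of the NADPH supply list, 4 were called lower in lung than in PB and 4 lower than in BM (edgeR, 1 and 4), beside 19.5% and 36.0% of all genes (edgeR, 11.4% and 23.1%). They were *G6pdx* and *Pgd* of the oxidative pentose phosphate pathway, *Tkt* and *Idh1*. *Idh1*, the cytosolic isocitrate dehydrogenase, went from 34.8 ± 1.12 FPKM in BM over 10.1 ± 1.76 in PB to 1.12 ± 0.29 in lung, and *Tkt*, transketolase, from 493 ± 8.71 over 123 ± 26.1 to 57.3 ± 2.39. In the heme and iron list, where 1 of 8 tested genes was called in each direction against PB, *Fth1*, the ferritin heavy chain, rose and *Slc40a1*, the iron exporter ferroportin, fell. *Fth1* measured 1113 ± 17.5 FPKM in BM, 3185 ± 217 in PB and 12880 ± 285 in lung, and *Slc40a1* 130 ± 1.36, 375 ± 21.2 and 56.8 ± 1.77. *Sod2*, the mitochondrial superoxide dismutase, rose the most of all list genes against both tissues, from 3.55 ± 0.19 in BM and 3.81 ± 0.19 in PB to 85.7 ± 0.75 FPKM in lung, a log2 difference of 4.17 against PB and 4.25 against BM. In the WT libraries of the Piezo1 experiment the log2 difference of lung minus PB was 3.78 for *Sod2*, 3.08 for *Slc3a2*, 1.73 for *Fth1* and 1.02 for *Slc7a11*, all called. In the thioredoxin list *Prdx6* was called higher and *Txnip* lower than in PB (1 and 1 of 10), while edgeR called *Prdx6* and *Sesn2* higher and did not call *Txnip*. Of 6 tested quinone and xenobiotic genes *Aldh3b1* was the 1 called, lower in lung, whereas edgeR did not call it and called *Abcc1* higher. *G6pdx*, *Pgd*, *Prdx6*, *Txnip*, *Sesn2*, *Aldh3b1* and *Abcc1* were named after their values were seen.

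For the comparison of genotypes, the targeted gene came first. *Piezo1* itself was at or near the counting floor in all 8 libraries, at 8 and 8 reads for the WT libraries of lung, 7 and 4 for the *Piezo1*-cKO libraries of lung, then 5 and 5 (WT) and 3 and 10 (*Piezo1*-cKO) for PB. At this depth the deletion could not be checked from its transcript.

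In lung neutrophils, 1 of 9 tested genes was called between genotypes, *Nqo1*, which was lower in WT, beside 0.995% of 6434 genes (0.202% higher and 0.793% lower in WT). *Nqo1* had 0.26 and 0.26 FPKM in WT lung, on 6 and 6 reads, and 2.06 and 1.94 FPKM in *Piezo1*-cKO lung, on 47 and 43 reads. Both *Piezo1*-cKO libraries lay above both WT libraries, and the mean was 7.74 times higher in *Piezo1*-cKO lung. The log2 difference of WT minus *Piezo1*-cKO was -1.25 ± 0.09 (adjusted p = 1.09e-04, limma-trend) and -2.81 by edgeR on the recovered reads (adjusted p = 1.91e-07). Without either *Piezo1*-cKO lung library *Nqo1* no longer passed the filter on low values, which left 0 of the 10 genes called. *Nqo1* lies on chromosome 8, 15.1 Mb before *Piezo1* (chr8:122481698-122551329), and *Hmox1* 47.4 Mb before it. Of 100 genes tested within 20 Mb of *Piezo1*, *Nqo1* was the 1 gene called, beside 1 of the 244 tested elsewhere on chromosome 8. The adjusted p alone was below 0.05 for 49.0% of the near genes and for 50.7% of all genes. In PB, 3 of 122 near genes and 11 of 294 elsewhere on chromosome 8 were called between genotypes. Whether its position bears on the *Nqo1* call was not tested.

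The other genes stayed under the fold threshold between genotypes in lung. *Nfe2l2* had 637 and 626 FPKM in WT and 608 and 578 FPKM in *Piezo1*-cKO lung, a log2 difference of 0.09. *Srxn1* (50.5 and 51.4 against 48.0 and 47.9 FPKM), *Txnrd1* (133 and 130 against 130 and 131 FPKM), *Maff* (8.18 and 8.25 against 8.83 and 9.06 FPKM) and *Mafg* (4.51 and 4.52 against 4.58 and 5.28 FPKM) had adjusted p of 0.095 to 0.72 (limma-trend). After rescaling the adjusted p (limma-trend) was 0.0053 for *Srxn1* (log2 difference 0.20), 0.012 for *Txnrd1* (0.12), 0.91 for *Maff* and 0.94 for *Mafg*. *Hmox1* was 34.3 and 37.1 FPKM in WT and 44.7 and 45.2 FPKM in *Piezo1*-cKO (log2 difference -0.33), *Gclm* 9.75 and 8.86 against 6.85 and 6.87 FPKM (0.39) and *Bach1* 3.34 and 3.45 against 2.59 and 2.51 FPKM (0.31). With *Nqo1* and *Nfe2l2* these made 5 of 9 genes below an adjusted p of 0.05, beside 50.7% of all genes, so that a share of this size is that of the background. *Gclc*, at 0.69 and 0.51 against 0.62 and 0.68 FPKM on 27 to 36 reads, did not pass the filter on low values and was not tested. Of the 50 list genes tested, limma-trend called 1, *Blvra*, with a mean of 0.07 FPKM in WT and 1.40 FPKM in *Piezo1*-cKO lung. *Blvra* encodes biliverdin reductase A, the enzyme after heme oxygenase. The gene passed the filter on low values through the *Piezo1*-cKO libraries alone. By edgeR 2 list genes were called, *Blvra* and *Nfe2l1* (log2 difference -1.10, adjusted p = 1.83e-07), both lower in WT, beside 345 of all 6434 genes. Both were named after their values were seen.

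**Figure D4:**
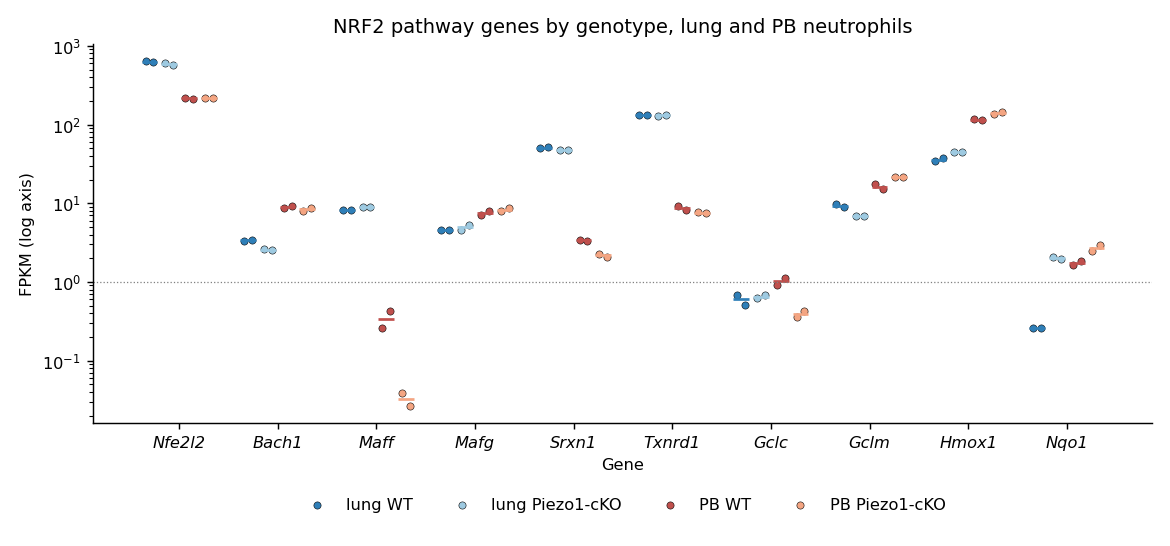
FPKM (log axis) of the 10 genes in lung and PB neutrophils of WT and *Piezo1*-cKO mice. Each point is 1 library, 2 per group, the short lines are means, and the dotted line marks 1 FPKM. *Nqo1* was 0.26 FPKM in both WT lung libraries and 1.94 to 2.06 FPKM in *Piezo1*-cKO lung, and *Maff* in *Piezo1*-cKO PB rests on 1 read per library.

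In PB neutrophils, 0 of 8 tested genes were called between genotypes by limma-trend, beside 3.65% of 7256 genes, and 0 by edgeR or DESeq2. An unadjusted p below 0.05 was reached by 4 of them in limma-trend, 5 in edgeR and 3 in DESeq2, beside 56.9%, 59.8% and 47.3% of all genes. *Hmox1* had 118 and 113 FPKM in WT and 137 and 145 FPKM in *Piezo1*-cKO PB (log2 difference of WT minus *Piezo1*-cKO -0.29, adjusted p = 0.0036, limma-trend). *Gclm* had 17.4 and 15.0 against 21.3 and 21.6 FPKM (-0.39), *Nqo1* 1.66 and 1.85 against 2.48 and 2.96 FPKM (-0.43) and *Srxn1* 3.40 and 3.34 against 2.29 and 2.08 FPKM (0.46). The first 3 were higher and *Srxn1* lower in *Piezo1*-cKO. These 4 of 8 with an adjusted p below 0.05 stand beside 49.7% of all genes.

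*Nfe2l2* (217 and 211 against 220 and 218 FPKM), *Txnrd1* (9.21 and 8.19 against 7.63 and 7.50 FPKM), *Mafg* (6.99 and 7.87 against 7.90 and 8.70 FPKM) and *Bach1* (8.68 and 9.31 against 8.07 and 8.66 FPKM) had adjusted p of 0.12 to 0.57 in PB (limma-trend). *Gclc*, at 42 and 59 reads in WT and 12 and 21 in *Piezo1*-cKO PB, and *Maff*, at 9 and 17 reads against 1 and 1, did not pass the filter on low values and were not tested. The erythroid markers differed between the same libraries: the summed FPKM of the 7 markers was 24.9 to 26.7 in WT PB and 1011 to 1136 in *Piezo1*-cKO PB, and 5.11 to 5.12 in WT lung against 0.42 to 1.70 in *Piezo1*-cKO lung. Their part in the PB values of *Hmox1* and *Gclm* was not tested. The genotype effect itself differed between lung and PB for 4 of 9 genes tested by the interaction term, *Nqo1*, *Gclm*, *Srxn1* and *Maff*, beside 48.2% of all genes, and their values are given under the results flagged for a closer look.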

How the data were processed

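Sorted neutrophil libraries were grouped by the deposited labels, and whole-lung libraries were not used here. The authors trimmed reads with fastp, aligned them to mm10 with HISAT2 and counted them with HTSeq (versions not given in the sources used here), and deposited FPKM per gene and library. The paper's methods and the labels name different library kits. The tables with *Piezo1*-cKO libraries add a signal that the authors computed for each group from size-factor-normalized counts, used here in read recovery alone, and columns of the authors' own fold changes and p-values, which were not used.

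An FPKM value equals the reads on a gene multiplied by a gene factor and a library factor. Reads recovered from this relation were whole within 0.1 for 100% of values. Each comparison used the libraries of its own groups and was fitted with limma 3.58.1 under R 4.3.3 (limma-trend, robust) to log2(FPKM + 1). Genes needed at least 1 FPKM in 3 libraries (tissue comparison) or 2 libraries (Piezo1 experiment), and p-values were adjusted by Benjamini-Hochberg over every gene tested. The interaction was called on the adjusted p alone. Alternatives were edgeR 4.0.16 (TMM, RLE) and DESeq2 1.42.0 run on recovered reads, a pseudocount of 0.1, no filter, rescaling by the median ratio, a replicate block, all libraries in 1 fit, another call threshold and each library left out. The fits were also run on simulated counts whose spread was the same for every gene and group. Only genes well above the filter were changed there, so genes of low level were not covered. Python 3.11.15 with pandas 2.3.3 and matplotlib 3.10.9 served for joining and plotting.

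The 10 genes and the pathway and marker lists were chosen with earlier results of these data known. All 10 genes are named in every comparison; from the lists the 3 largest rises and the 3 largest falls per comparison of lung with PB or BM, among calls whose higher group had a mean of at least 5 FPKM, with *Keap1*, *Mafk*, *Slc7a11*, *Fth1*, *Sod2* and *Nfe2* in any case. Positions and promoters are from RefSeq on GRCm38.p6, the build named mm10.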

Additional observations from a re-analysis of the deposited data

Results flagged for a closer look

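A difference of the genotype effect between lung and PB (WT minus *Piezo1*-cKO in lung, minus the same in PB) was found for 4 of the 9 genes tested, by the interaction term of limma-trend at an adjusted p below 0.05, which 48.2% of all 7560 genes passed. *Nqo1* gave -0.82 (adjusted p = 0.0014), since it was lower in WT than in *Piezo1*-cKO libraries of both tissues and more so in lung. *Gclm* gave 0.78 (adjusted p = 7.69e-04), with WT higher in lung and lower in PB. *Srxn1* gave -0.37 (adjusted p = 0.0069), with a difference of 0.09 in lung and 0.46 in PB. *Maff* gave -0.48 (adjusted p = 0.012), and its PB libraries held 1 to 17 reads. After rescaling by the median ratio the adjusted p was 0.051 for *Srxn1* and 0.071 for *Maff*, and none of the 4 limma-trend values had an absolute size above 1. *Nfe2l2* (0.12, adjusted p = 0.059) and *Bach1* (0.21, adjusted p = 0.13) were not called by limma-trend and were called after rescaling (0.23 and 0.32) and by edgeR (0.20 and 0.39) and DESeq2. *Hmox1*, *Txnrd1* and *Mafg* had adjusted p of 0.12 to 0.81 (limma-trend), and *Gclc* did not pass the filter on low values. *Nqo1*, *Gclm*, *Srxn1* and *Maff* were called whichever library was left out.

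*Gclc* moved in opposite directions in the 2 experiments, which was not tested as a difference. Its mean FPKM in lung was 1.47 times that in PB in the tissue comparison, where every lung library lay above every PB library. In the WT libraries of the Piezo1 experiment it was 0.59 times, and every lung library lay below every PB library. The latter rest on 27 to 59 reads per library.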

How the results depend on the processing

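Counts of the 10 genes called stayed within 1.5 times of the values given above under most alternatives. For PB against BM 2 were called, and 10 by the adjusted p alone, 4 with a pseudocount of 0.1 and 4 each by edgeR with TMM or RLE and by DESeq2. For WT against *Piezo1*-cKO the adjusted p alone gave 5 in lung in place of 1 and 4 in PB in place of 0. In the WT lung against PB of the Piezo1 experiment rescaling by the median ratio left 4 of 7, and the interaction left 0 of 4 when an absolute difference above 1 was also asked. With each library left out the counts ranged from 6 to 7 (lung against PB), 6 to 7 (lung against BM), 1 to 3 (PB against BM), 0 to 1 (genotype, lung), 0 (genotype, PB), 6 (WT lung against PB) and 4 to 5 (interaction). *Maff* left the calls of lung against BM, of PB against BM and of WT lung against PB when a library of the higher group was left out, and *Nqo1* the genotype call without a *Piezo1*-cKO lung library and the call of WT lung against PB without a PB library, since fewer libraries than the filter asks for then reached 1 FPKM. *Nfe2l2* (0.16) joined the interaction calls without *Piezo1*-cKO lung replicate 1 and *Txnrd1* (-0.24) without WT PB replicate 2.

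Of 846 single values under the alternatives, 774 kept direction and call, 34 gained and 20 lost a call and 18 changed sign. *Hmox1* in lung minus BM turned to 0.36 (rescaled), 0.31 (edgeR TMM) and 0.36 (edgeR RLE, DESeq2). The other changes of sign lay near 0. They were *Mafg* in WT lung minus PB (0.023 rescaled, 0.022 with edgeR RLE and 0.024 with DESeq2), *Nfe2l2* between genotypes in PB (0.00094 with edgeR TMM), *Txnrd1* between genotypes in lung (-0.00038 to 0.028 with each library left out) and, in the interaction, *Hmox1* (0.071 rescaled, 0.074 with edgeR RLE, 0.073 with DESeq2, 0.045 with edgeR TMM and -0.092 to 0.020 with each library left out) and *Mafg* (-0.045 to 0.13 with each library left out). The cause of these changes was not tested.

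Same-numbered libraries of 2 groups correlated at -0.09 to 0.05 over genes in their deviations. These values cannot decide whether such libraries came from the same mouse, since other spread between libraries can hide a pairing. In the Piezo1 experiment, with 2 libraries per group, both numbers give the same value by construction. With the replicate number as a block the counts were 6, 7, 2, 1, 0, 7 and, for the interaction, 5, where *Nfe2l2* (0.12, adjusted p = 0.032) joined the calls. Values under 1 FPKM rest on few reads (7 to 24 for *Maff* in BM, 58 to 65 for *Gclc* in BM), and the pseudocount of 1 shrinks their differences.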
